A study of Homo sapiens with 30 samples.

Results

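The genes of cholesterol and fatty acid synthesis were followed in RNA sequencing of 5 human T-cell acute lymphoblastic leukaemia (T-ALL) cell lines given decitabine. The members were 33 genes listed by name and matched by GENCODE 29 symbol, of 60554 gene identifiers in the count files. They comprised 24 genes of the sterol branch and 9 of the fatty acid branch, and the branches were kept apart. Cells of the lines PEER, Loucy, PER-117, MOLT-16 and TALL-1 received 1 µM decitabine for 48 h or the solvent DMSO, with 3 libraries in each of the 10 groups and 30 in all. Decitabine is a cytidine analogue that is built into DNA and traps DNA methyltransferases, so that methylation is lost as cells divide. Libraries held the 3′ ends of messenger RNA, so that one read came from near the end of one transcript. All groups grew in medium with fetal calf serum at one of a pair of concentrations, and the labels do not say which line had which, so that serum and line cannot be told apart. Every line is a leukaemia grown in culture, with no normal T cells beside it.

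Cholesterol is built from acetyl-CoA. The mevalonate arm makes isoprenoid diphosphates and ends with squalene, and the enzymes after squalene close the ring and trim it to cholesterol. The same cytosolic acetyl-CoA, made from citrate by ACLY, feeds ACACA and FASN, which build saturated fatty acids that desaturases and elongases then change. Both branches are controlled by the SREBP transcription factors, encoded by SREBF1 and SREBF2. These sit in the membrane of the endoplasmic reticulum with their escort SCAP, and INSIG1 holds the pair there when sterols are plentiful. INSIG1 is itself a known SREBP target, so the pathway carries its own brake. Dividing leukaemia cells use both branches to make membrane.

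The promoter sequences of 4 members whose levels are described at length are given first, because the members share control by SREBP. They are RefSeq windows on GRCh38.p14 that reach from 250 bases before to 50 bases after an annotated start, written 5′ to 3′ on the gene's strand. Capitals mark CCAAT, the box bound by NF-Y, or its complement ATTGG, and TCACNCCAC, a form of the sterol regulatory element, searched on both strands.
FDPS, chr1:155308616-155308915, plus strand: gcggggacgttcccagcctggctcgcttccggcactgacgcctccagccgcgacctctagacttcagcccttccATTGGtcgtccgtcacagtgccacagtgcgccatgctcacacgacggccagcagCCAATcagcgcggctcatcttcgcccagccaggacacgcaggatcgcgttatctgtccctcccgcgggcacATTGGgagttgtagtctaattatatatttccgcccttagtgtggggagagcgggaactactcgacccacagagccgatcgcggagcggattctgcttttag
INSIG1, chr7:155297628-155297927, plus strand: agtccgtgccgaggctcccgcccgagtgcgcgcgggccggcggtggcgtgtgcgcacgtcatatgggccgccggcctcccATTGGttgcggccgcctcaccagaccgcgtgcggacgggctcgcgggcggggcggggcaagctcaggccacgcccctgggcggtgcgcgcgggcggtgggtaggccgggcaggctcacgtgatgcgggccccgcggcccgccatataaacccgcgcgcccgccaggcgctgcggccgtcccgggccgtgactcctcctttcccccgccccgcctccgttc
SREBF2, chr22:41832855-41833154, plus strand: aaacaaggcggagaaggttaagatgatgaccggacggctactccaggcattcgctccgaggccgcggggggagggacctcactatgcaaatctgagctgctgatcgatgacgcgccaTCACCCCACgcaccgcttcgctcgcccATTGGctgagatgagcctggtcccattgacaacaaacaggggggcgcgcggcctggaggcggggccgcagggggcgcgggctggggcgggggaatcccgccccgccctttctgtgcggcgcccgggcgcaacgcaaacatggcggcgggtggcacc
ACLY, chr17:41918973-41919272, minus strand, the first of 2 windows listed: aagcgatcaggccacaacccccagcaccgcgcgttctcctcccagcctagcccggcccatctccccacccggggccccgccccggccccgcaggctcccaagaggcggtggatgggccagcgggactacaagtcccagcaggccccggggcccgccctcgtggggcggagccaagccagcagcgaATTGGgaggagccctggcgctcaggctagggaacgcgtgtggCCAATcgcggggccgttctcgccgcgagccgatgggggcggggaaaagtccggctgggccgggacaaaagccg
In GENCODE 29 FDPS spans chr1:155308748-155320666, INSIG1 chr7:155297776-155310235, SREBF2 chr22:41833079-41907308 and ACLY chr17:41866908-41930542. FDPS encodes farnesyl diphosphate synthase, and its window held 3 CCAAT boxes. The ACLY window held 2, those of INSIG1 and SREBF2 1 each. Of the 33 members 29 were in the table, with 42 windows between them. A CCAAT box was in 26 of these 42 windows (61.9%), against 34.61% of 35116 windows of all genes. TCACNCCAC was in 1 window, that of SREBF2, starting 133 bases before the start, which is 2.381% of the members' windows against 1.128% of all windows. In 1 window each of IDI1 and NSDHL a CCAAT and an ATTGG share letters and were counted as 2 boxes. The median number of CpG pairs per window was 27.5 for the members and 14 for all genes. These matches describe letters in a window and were not set against the response to decitabine.

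Reads assigned to genes on their own strand numbered 2824701 to 10621941 per library in PEER, 2494122 to 6538242 in TALL-1, 2197347 to 5259040 in MOLT-16, 10161472 to 15391979 in Loucy and 9927698 to 15029752 in PER-117. Levels below are counts-per-million values (CPM) after TMM scaling, and a log2 change is decitabine minus DMSO. All 7 T-lineage genes listed (CD3D, CD3E, CD3G, CD7, CD2, CD5 and LCK) had reads in every group, although CD2 and CD5 averaged 0.22 and 0.25 CPM in PER-117 under DMSO. Their summed level was lower under decitabine in every line, for example 259.8 to 268 CPM in PER-117 under decitabine against 437 to 462 CPM under DMSO, but single genes differed. By edgeR 4 of the 7 were called lower in TALL-1, 3 in PER-117 and 1 in Loucy, none in PEER or MOLT-16, and CD2 was called higher in Loucy, at 3.62 to 5.14 CPM under decitabine against 0.614 to 0.724 CPM under DMSO (log2 change 2.74, edgeR adjusted p = 4.35e-05). Of 10 markers of other cell types 6 passed the count filter, and the haemoglobin gene HBG1 was at 0 throughout. The 6 summed to 83.5 to 87.2 CPM under decitabine against 43.6 to 61.6 CPM under DMSO in Loucy, and to 1.89 to 2.44 CPM under decitabine against 0.417 to 2.05 CPM under DMSO in PER-117. The part of these markers in the results was not tested. Of the DMSO libraries 3 stood apart, because they held transcripts restricted to another line. The summed level of 37 PEER-restricted genes in DMSO replicate 3 of MOLT-16 was 23.6% of that in PEER, and in DMSO replicate 3 of TALL-1 it was 18.9%. For 25 MOLT-16-restricted genes, DMSO replicate 2 of PEER reached 9.02% of the MOLT-16 level. The other 12 DMSO libraries held such genes at no more than 3.38%. Decitabine libraries served to choose these genes, so this measure could not be applied to them, and they were not examined for transcripts of another line. Values are from all 30 libraries unless stated, and the fit of the other 27 libraries is given where it changes a call or a direction described.

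CYP51A1, lanosterol demethylase, had 7 reads over all 30 libraries and did not pass the count filter, so 32 of the 33 members were tested. In GENCODE 29 another protein-coding gene covers 22645 bases of it on the same strand, and what this does to the counting was not tested. GGPS1, geranylgeranyl diphosphate synthase, is covered by TBCE on the same strand up to its 3′ end, where these libraries read, so its counts are uncertain. HSD17B7, a ketosteroid reductase, has a near-identical pseudogene copy and is uncertain for that reason.

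Under decitabine, FDPS, FDFT1, INSIG1, ACLY and ACACA fell in both PER-117 and Loucy, and in PER-117 so did 8 other members. In TALL-1 falls of FDPS, FDFT1, ACLY and ELOVL5 stood beside rises of TM7SF2, SC5D and ELOVL6. A change was called where edgeR's quasi-likelihood test over 15081 genes gave a Benjamini-Hochberg adjusted p under 0.05. In PER-117 13 of the 32 members were called lower and 1 higher, against 3.16% of all genes called lower and 8.67% called higher. In Loucy 5 were called lower and none higher, where all genes gave 4.13% lower and 10.6% higher. In TALL-1 4 were called lower and 3 higher, beside 6.12% of all genes lower and 6.74% higher. In PEER 1 member was called lower and none higher, with 0.961% of genes lower and 3.54% higher. In MOLT-16 no member was called in either direction by edgeR or by DESeq2, and 1.01% of genes were called lower and 2.19% higher. There 8 members had an unadjusted p under 0.05 by edgeR, and the share of all genes at that threshold was not counted in any line. In either direction together, 4.50% of genes were called in PEER, 12.9% in TALL-1, 3.20% in MOLT-16, 14.7% in Loucy and 11.8% in PER-117.

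The 27 calls over the 5 lines were all in members whose 3 decitabine libraries lay wholly on one side of the 3 DMSO libraries. All 3 decitabine libraries lay below all 3 DMSO libraries for 18 of the 32 members in PER-117, where 14.7% of all genes did so. This was so for 14 members in Loucy (15.7% of genes), 11 in PEER (11.2%), 7 in TALL-1 (14.1%) and 5 in MOLT-16 (7.33%). They lay above for 8 members in TALL-1 (15.5% of genes) and for 1 member in each other line, where the share of genes was 12.5% in PEER, 9.18% in MOLT-16, 23.4% in Loucy and 21.6% in PER-117. Median log2 changes of the sterol branch were -0.30 in PEER, 0.20 in TALL-1, -0.14 in MOLT-16, -0.14 in Loucy and -0.35 in PER-117. For the fatty acid branch the medians were -0.38 in PEER, -0.35 in TALL-1, -0.13 in MOLT-16, -0.39 in Loucy and -0.54 in PER-117, while the median of all genes lay between -0.02 and 0.05 in every line. Loucy and PER-117 are also the lines with the most reads. Over all genes the median SD within their groups was 0.16 to 0.19 log2 CPM, against 0.21 to 0.41 in the other lines, and the part of depth and spread in the number of calls was not tested.

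The counts of calls leaned on single libraries. The share of all genes called was not counted in the fits of this paragraph, so whether the moves are particular to the members was not tested. In PER-117 the 10 calls in the sterol branch became 3 without DMSO replicate 3, 4 without decitabine replicate 1 and 5 without decitabine replicate 2. In TALL-1 the 4 sterol calls became 0 without decitabine replicate 3 or DMSO replicate 1, 1 without decitabine replicate 1, and 2 without any of the other 3 libraries, and the 3 fatty acid calls became 1 without decitabine replicate 3. In Loucy the 3 sterol calls became 1 without decitabine replicate 2 or decitabine replicate 3, and the 2 fatty acid calls became 1 without any of the decitabine libraries or DMSO replicate 1. In MOLT-16 5 sterol members were called without DMSO replicate 3 and 1 without DMSO replicate 1, and 1 fatty acid member without DMSO replicate 2. In PEER the count of 1 became 0 without any of the decitabine libraries or DMSO replicate 3. With no filter on low counts 11 calls were lost, those of ACLY in PEER and TALL-1, FDPS, FDFT1, TM7SF2 and SC5D in TALL-1, FDPS and ACACA in Loucy, and FDFT1, MSMO1 and ACACA in PER-117.

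**Figure D1:**
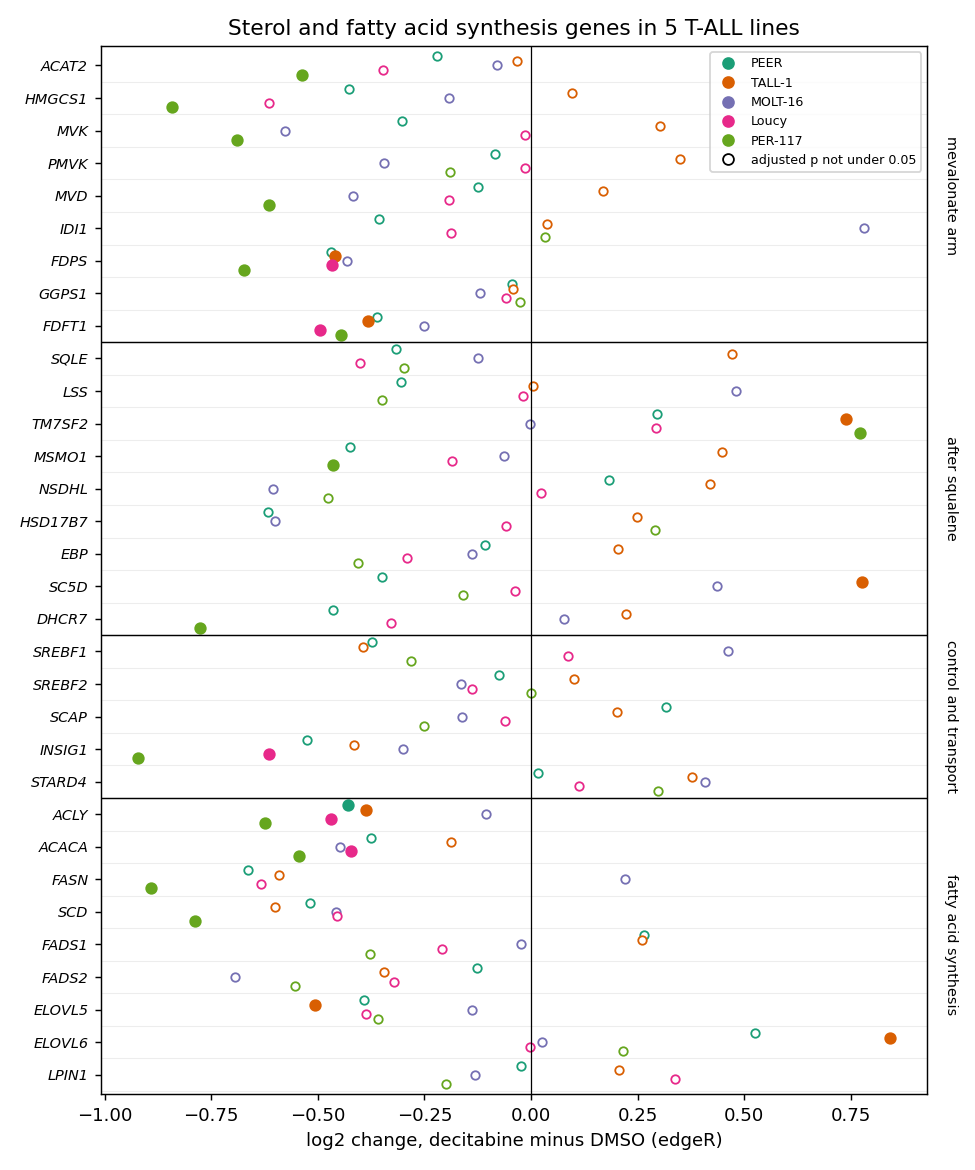
Log2 change (decitabine minus DMSO) of the 32 measured members in each of the 5 lines, grouped by role, with 1 point per member and line. Filled points are called at an adjusted p under 0.05, and the filled points left of 0 are mostly those of PER-117 and Loucy.

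In the mevalonate arm, FDPS and FDFT1 were called lower in 3 of the 5 lines each. The share of all genes called lower, or with groups apart, in as many lines was not counted. The product of FDPS is the common precursor of squalene and of the groups that anchor RAS-like proteins in membranes. Within each of the 5 lines FDPS was lower in every decitabine library than in every DMSO library. Its levels were 106, 123 and 135 CPM under decitabine, against 161, 180.2 and 239 CPM under DMSO in PER-117. In Loucy they were 148, 131 and 144 CPM under decitabine, against 184, 167 and 233 CPM under DMSO, and in TALL-1 103, 95.3 and 95.6 CPM under decitabine, against 129, 132 and 143 CPM under DMSO. The groups did not overlap in these lines, and FDPS was called lower in each. The log2 changes were -0.67 (SE 0.14, edgeR adjusted p = 0.00186) in PER-117, -0.47 (SE 0.14, edgeR adjusted p = 0.0253) in Loucy and -0.46 (SE 0.15, edgeR adjusted p = 0.0381) in TALL-1. PEER had 89.8, 75.7 and 73.1 CPM under decitabine, against 109, 103 and 119.8 CPM under DMSO, and MOLT-16 had 63.7, 61.2 and 70.3 CPM under decitabine, against 77.6, 81.9 and 103 CPM under DMSO. There the changes of -0.47 and -0.43 did not pass, with edgeR adjusted p = 0.0684 in PEER and 0.115 in MOLT-16. The gene RUSC1-AS1 covers the 3′ end of FDPS on the opposite strand. Counts made without regard to strand held fewer reads than own-strand counts, for example 9969585 against 10621941 in PEER decitabine replicate 1. In those counts FDPS was called in none of the 3 lines. Its change was then -0.30 in PER-117 (edgeR adjusted p = 0.448), -0.27 in Loucy (0.424) and 0.32 in TALL-1 (0.42). In fits that left out 1 library of the line, the FDPS call was kept whichever library was left out in PER-117, lost unless the library left out was DMSO replicate 1 or DMSO replicate 2 in Loucy and lost whichever library was left out in TALL-1. It was not called in TALL-1 without the 3 libraries that stood apart.

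FDFT1, squalene synthase, commits the arm to sterols, and its decitabine libraries also lay below its DMSO libraries within each of the 5 lines. Loucy had 283, 242 and 251 CPM under decitabine, against 360.4, 361 and 372 CPM under DMSO. TALL-1 had 650.5, 657 and 559 CPM under decitabine, against 872, 821 and 740.1 CPM under DMSO. The change was -0.49 (SE 0.12, edgeR adjusted p = 0.00617) in Loucy, and the call was kept whichever library was left out. It was -0.38 (SE 0.12, edgeR adjusted p = 0.0408) in TALL-1 and -0.44 (SE 0.12, edgeR adjusted p = 0.0167) in PER-117. In PEER it was -0.36 (edgeR adjusted p = 0.102) and in MOLT-16 -0.25 (0.271), neither of which passed. The call was lost unless the library left out was DMSO replicate 3 in TALL-1 and lost without decitabine replicate 1, decitabine replicate 2 or DMSO replicate 3 in PER-117.

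PER-117 changed at the head of the arm as well, with 6 of the 9 mevalonate genes called lower. HMGCS1, which condenses acetoacetyl-CoA with acetyl-CoA to HMG-CoA, had 326, 356 and 374 CPM under decitabine, against 548, 546 and 801 CPM under DMSO there, and replicate 3 under DMSO was the highest. Its change was -0.84 (SE 0.28, edgeR adjusted p = 0.0451), and the call was lost whichever library of the line was left out. In the fit of 27 libraries, which kept every PER-117 library, HMGCS1 was at -0.84 there (SE 0.14, edgeR adjusted p = 5.94e-05). ACAT2, the thiolase before it, changed by -0.54 (SE 0.16, edgeR adjusted p = 0.0283), and this call was lost unless the library left out was DMSO replicate 2. MVD, the decarboxylase that makes isopentenyl diphosphate, changed by -0.62 (SE 0.19, edgeR adjusted p = 0.0269), a call lost without decitabine replicate 1, decitabine replicate 2 or DMSO replicate 3. In the counts made without regard to strand neither ACAT2 nor HMGCS1 was called in PER-117, at -0.29 (edgeR adjusted p = 0.761) and -0.84 (0.0805). IDI1, the isomerase that follows, gave 0.03 and GGPS1 -0.03, neither called. PMVK, phosphomevalonate kinase, gave -0.19 and was not called either. In Loucy HMGCS1 had 369, 325 and 356 CPM under decitabine, against 615, 484 and 508 CPM under DMSO, with no overlap, but its change of -0.61 did not pass (edgeR adjusted p = 0.142).

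MVK, mevalonate kinase, responded differently between the lines (edgeR adjusted p for the difference = 0.0381). PER-117 had 27.6, 28.98 and 37.8 CPM under decitabine, against 46.7, 47.2 and 58.4 CPM under DMSO, and all its decitabine libraries were the lower ones, with a change of -0.69 (SE 0.18, edgeR adjusted p = 0.00866). PEER had 22.4, 24.4 and 23.2 CPM under decitabine, against 30.5, 27.3 and 28.1 CPM under DMSO, again without overlap, and -0.30 on the log2 scale. TALL-1 had 49.2, 32.8 and 39.8 CPM under decitabine, against 34.3, 33.5 and 30.6 CPM under DMSO, where the groups overlapped and the change was 0.30. MOLT-16 had 20.2, 13.2 and 21.7 CPM under decitabine, against 19.9, 25.9 and 37.3 CPM under DMSO, and Loucy had 38.4, 34.8 and 40.7 CPM under decitabine, against 42.3, 35.1 and 37.6 CPM under DMSO. The groups overlapped in both, with changes of -0.58 in MOLT-16, which was -0.31 without the 3 libraries that stood apart, and -0.01 in Loucy, and PER-117 was the line in which MVK was called. That call was lost without decitabine replicate 1 or DMSO replicate 3.

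After squalene the direction differed between lines. All 9 measured genes of this stretch had a log2 change above 0 in TALL-1, 6 of them with every decitabine library above every DMSO library, and 2 were called higher. With 27 libraries 8 of the 9 were above 0 there, HSD17B7 being at -0.09. In PER-117 7 of the 9 were below 0, 2 were called lower and 1 higher, and in Loucy and PEER 7 of 9 were below 0 with none called. In MOLT-16 6 of 9 were below 0, or 4 of 9 without those libraries, and none was called with all libraries. The count of 0 in PEER is from edgeR, and 2 of the 9 had an unadjusted p under 0.05 there, as did 1 of the 9 in Loucy (share of all genes not counted). Of all genes 51.7% were below 0 in PEER, 50.1% in TALL-1, 50.8% in MOLT-16, 46.0% in Loucy and 42.3% in PER-117. DESeq2 called no sterol member in PEER. A response that differed between the 5 lines was called for 7 of the 32 members, against 13.6% of all genes, and 5 of the 7 act after squalene. This test asks whether the 5 responses are equal and singles out no line.

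MSMO1, the oxidase that begins removal of the methyl groups at carbon 4 of the ring, had 139, 137 and 129 CPM under decitabine, against 102, 90.8 and 104 CPM under DMSO in TALL-1. In PER-117 it had 74.1, 74.1 and 92.3 CPM under decitabine, against 93.8, 102 and 136 CPM under DMSO. The decitabine libraries were all higher in TALL-1 and all lower in PER-117. The change was 0.45 (SE 0.16, edgeR adjusted p = 0.0566) in TALL-1 and -0.47 (SE 0.15, edgeR adjusted p = 0.0456) in PER-117, and the difference between lines gave an edgeR adjusted p of 0.0261. The PER-117 call was lost unless the library left out was decitabine replicate 3 or DMSO replicate 1. Loucy had 93.3, 79.7 and 88.96 CPM under decitabine, against 94.9, 102 and 101 CPM under DMSO, lower without overlap. PEER had 21.2, 17.9 and 20.96 CPM under decitabine, against 25.5, 34.5 and 20.9 CPM under DMSO, and MOLT-16 had 46.8, 45.5 and 46.6 CPM under decitabine, against 41.1, 43.2 and 60.3 CPM under DMSO. Groups overlapped in both, with changes of -0.42 in PEER and -0.06 in MOLT-16. Over the 27 libraries they were -0.19 in PEER and 0.10 in MOLT-16.

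NSDHL, the dehydrogenase of the same demethylation, gave the smallest p for a difference between lines among the members (edgeR adjusted p = 0.0226). Its levels in TALL-1 were 64.8, 48.9 and 53.9 CPM under decitabine, against 47.6, 42.3 and 35.4 CPM under DMSO, all higher under decitabine. They were 55.2, 44.04 and 69.5 CPM under decitabine, against 75.2, 72.2 and 87.1 CPM under DMSO in PER-117 and 31.2, 22.997 and 34.7 CPM under decitabine, against 39.6, 50.3 and 46.7 CPM under DMSO in MOLT-16, all lower under decitabine. PEER had 41.6, 37.3 and 38.7 CPM under decitabine, against 40.3, 26.1 and 37.4 CPM under DMSO. Loucy had 62.4, 49.8 and 60.9 CPM under decitabine, against 59.6, 62.7 and 47.9 CPM under DMSO, and in both the groups overlapped. With all libraries no single line passed, the changes being 0.18 in PEER, 0.42 in TALL-1, -0.61 in MOLT-16, 0.02 in Loucy and -0.47 in PER-117. Over the 27 libraries NSDHL was called lower in PER-117, at -0.48, and in MOLT-16, at -0.61.

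SQLE, squalene monooxygenase, takes the first oxygen-requiring step of the pathway. TALL-1 had 125, 117 and 114 CPM under decitabine, against 96.8, 88.5 and 71.4 CPM under DMSO, all higher under decitabine. Loucy had 58.3, 75.2 and 66.7 CPM under decitabine, against 80.5, 83.98 and 99.8 CPM under DMSO, and PER-117 had 62.1, 65.9 and 66.7 CPM under decitabine, against 70.5, 70.2 and 98.6 CPM under DMSO. Both were lower under decitabine without overlap. PEER had 30.04, 28.3 and 23.8 CPM under decitabine, against 29.8, 38.7 and 34.9 CPM under DMSO, and MOLT-16 had 33.7, 29.4 and 43.02 CPM under decitabine, against 31.9, 35.1 and 48.2 CPM under DMSO, with overlap in both. The changes were -0.32 in PEER, 0.47 in TALL-1, -0.12 in MOLT-16, -0.40 in Loucy and -0.30 in PER-117, none of them called, and the difference between lines gave an edgeR adjusted p of 0.0435. The MOLT-16 change was 0.05 without the 3 libraries that stood apart, and SQLE was then called lower in Loucy.

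DHCR7, which makes cholesterol from its immediate precursor, had 37.7, 38.7 and 45.9 CPM under decitabine, against 63.5, 58.3 and 87.8 CPM under DMSO in PER-117. It fell by 0.78 on the log2 scale with no overlap (SE 0.18, edgeR adjusted p = 0.00436), and the call was lost without DMSO replicate 3. PEER had 32.8, 29.8 and 25.7 CPM under decitabine, against 46.6, 38.2 and 38.01 CPM under DMSO, and Loucy had 37.6, 27.6 and 37.3 CPM under decitabine, against 41.1, 40.6 and 46.8 CPM under DMSO. In these lines the decitabine libraries were also all lower, with uncalled changes of -0.46 and -0.33. TALL-1 had 68.8, 64.5 and 61.9 CPM under decitabine, against 50.004, 62.5 and 55.1 CPM under DMSO, and MOLT-16 had 45.7, 32.3 and 51.3 CPM under decitabine, against 32.9, 33.7 and 56.1 CPM under DMSO. There the groups overlapped and the changes were 0.22 in TALL-1 and 0.08 in MOLT-16, the second being 0.35 without the 3 libraries that stood apart, and the difference between lines passed (edgeR adjusted p = 0.0432).

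SC5D, the desaturase that introduces a ring double bond before DHCR7 acts, had 10.6, 12.4 and 15.7 CPM under decitabine, against 6.44, 7.87 and 7.88 CPM under DMSO in TALL-1. The groups did not overlap, and the change was 0.78 (SE 0.22, edgeR adjusted p = 0.0192), a call lost without decitabine replicate 3 or DMSO replicate 1. Its change was 0.44 in MOLT-16 and lay between -0.35 and -0.04 in the other lines, and the difference between lines gave an edgeR adjusted p of 0.0474. TM7SF2, a sterol reductase whose activity the lamin B receptor can also supply, was the only member called higher in 2 lines. It had 15.6, 16.6 and 18.5 CPM under decitabine, against 8.38, 8.87 and 12.4 CPM under DMSO in PER-117 and 25.5, 18.1 and 27.9 CPM under decitabine, against 13.3, 15.99 and 13.1 CPM under DMSO in TALL-1. In both lines all decitabine libraries were higher, by 0.77 (SE 0.22, edgeR adjusted p = 0.017) in PER-117 and 0.74 (SE 0.23, edgeR adjusted p = 0.0317) in TALL-1. The calls were lost without decitabine replicate 3, DMSO replicate 1 or DMSO replicate 2 in PER-117 and lost unless the library left out was decitabine replicate 2 or DMSO replicate 2 in TALL-1, and the one in TALL-1 was not made without the 3 libraries that stood apart. The TM7SF2 change was 0.30 in PEER, 0.29 in Loucy and -0.0015 in MOLT-16, with overlapping groups. LSS, lanosterol synthase, ranged between -0.35 in PER-117 and 0.48 in MOLT-16. The isomerase EBP ranged between -0.41 in PER-117 and 0.20 in TALL-1, and with all libraries neither was called. Over the 27 libraries EBP was called lower in PER-117 and LSS higher in MOLT-16. HSD17B7 lay between -0.62 in PEER and 0.29 in PER-117 at 0.979 to 12.9 CPM per library, and was not called.

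Of the 7 differences between lines, NSDHL stayed called in 29 of 30 fits that each left out 1 library, ELOVL6 in 23, MSMO1 in 22, MVK in 15, SQLE in 12, DHCR7 in 7 and SC5D in 5. The number of members called went down to 1 without TALL-1 decitabine replicate 1, Loucy decitabine replicate 2 or Loucy decitabine replicate 3, and up to 14 without MOLT-16 DMSO replicate 3. It was 4 or fewer without any TALL-1 or Loucy library, without decitabine replicate 2 or 3 of PEER, without decitabine replicate 1 of MOLT-16, and without decitabine replicate 1 or 2 or DMSO replicate 3 of PER-117. From 27 libraries it was 16, where 27.8% of all genes were called, against 13.6% with all libraries, and SC5D was then not among the 16. In the fits that left out 1 library the share of all genes was not counted, so the moves there may not be particular to the members.

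Among the control genes, INSIG1 fell in PER-117 and Loucy, and with all libraries SREBF1, SREBF2 and SCAP were not called in any line. INSIG1 had 105, 117 and 136 CPM under decitabine, against 202, 198 and 278 CPM under DMSO in PER-117. In Loucy it had 113, 105 and 92.2 CPM under decitabine, against 163, 158 and 153 CPM under DMSO. The groups were apart in both lines, and the changes of -0.92 (SE 0.18, edgeR adjusted p = 0.00068) in PER-117 and -0.61 (SE 0.18, edgeR adjusted p = 0.0183) in Loucy passed. PEER had 143, 123 and 106 CPM under decitabine, against 208, 157 and 173 CPM under DMSO, and TALL-1 had 416, 497 and 389 CPM under decitabine, against 575, 619.6 and 542 CPM under DMSO. These groups were apart as well, but changes of -0.52 (edgeR adjusted p = 0.101) and -0.41 (0.128) did not pass. MOLT-16 had 114, 114 and 124 CPM under decitabine, against 104, 124 and 205 CPM under DMSO. The highest DMSO value was that of the library holding PEER transcripts, and their part in it was not tested. The MOLT-16 change was -0.30 with that library and 0.01 without the 3 libraries that stood apart. Without them INSIG1 was also called lower in PEER, at -0.59 (SE 0.15, edgeR adjusted p = 0.0163), and in TALL-1, at -0.46 (SE 0.15, edgeR adjusted p = 0.036). The INSIG1 call was kept whichever library was left out in PER-117 and lost without decitabine replicate 2, decitabine replicate 3 or DMSO replicate 1 in Loucy.

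SREBF1 had log2 changes of -0.37 in PEER, -0.39 in TALL-1, 0.46 in MOLT-16, 0.09 in Loucy and -0.28 in PER-117. Its lowest adjusted p over the lines was 0.365 by edgeR, and the groups overlapped in every line. In TALL-1 its levels were 48.5, 74.5 and 79.5 CPM under decitabine, against 102, 100.1 and 63.9 CPM under DMSO, and in MOLT-16 they were 31.7, 33.3 and 22.5 CPM under decitabine, against 18.6, 8.34 and 35.2 CPM under DMSO. In both lines the DMSO library that stood apart was the one that crossed the decitabine values. In the fit of 27 libraries SREBF1 was called higher in MOLT-16, at 1.06 (SE 0.27, edgeR adjusted p = 0.00561), and lower in TALL-1, at -0.59 (SE 0.20, edgeR adjusted p = 0.0449). SREBF2 had changes of -0.08 in PEER, 0.10 in TALL-1, -0.16 in MOLT-16, -0.14 in Loucy and 2.19e-05 in PER-117, at 63.2 to 199 CPM under decitabine and 66.03 to 201 CPM under DMSO over all lines. SCAP had 0.32 in PEER, 0.20 in TALL-1, -0.16 in MOLT-16, -0.06 in Loucy and -0.25 in PER-117, and its groups overlapped in every line too. Without the 3 libraries SCAP was at 0.06 in PEER and -0.35 in MOLT-16, and not called. STARD4, a carrier that moves sterol between membranes, was the member above 0 in all 5 lines with all libraries, at 0.02 in PEER, 0.38 in TALL-1, 0.41 in MOLT-16, 0.11 in Loucy and 0.30 in PER-117, and was not called in any. Over the 27 libraries it was at -0.03 in PEER, and no member was then above 0 in all 5 lines. Of all genes 9.91% were above 0 in all 5 lines.

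In the fatty acid branch the first 4 enzymes all fell in PER-117, and an elongase rose in TALL-1. ACLY, ATP citrate lyase, was called lower in 4 of the 5 lines, the most of any member (share of all genes not counted). Its levels were 193, 202 and 184 CPM under decitabine, against 308, 287 and 298 CPM under DMSO in PER-117. Loucy had 245, 222 and 223 CPM under decitabine, against 325, 272 and 357 CPM under DMSO. PEER had 226, 255 and 256 CPM under decitabine, against 314, 362 and 316 CPM under DMSO. In all 3 lines every decitabine library was below every DMSO library, and this held in TALL-1 too, at 249, 232 and 222 CPM under decitabine, against 296, 283 and 341 CPM under DMSO. The changes were -0.62 (SE 0.12, edgeR adjusted p = 0.000357) in PER-117 and -0.47 (SE 0.11, edgeR adjusted p = 0.00488) in Loucy, both kept whichever library was left out. They were -0.43 (SE 0.12, edgeR adjusted p = 0.0299) in PEER, a call lost unless the library left out was DMSO replicate 1, and -0.39 (SE 0.12, edgeR adjusted p = 0.0253) in TALL-1, a call lost without decitabine replicate 2, decitabine replicate 3 or DMSO replicate 3. MOLT-16 had 272, 288 and 263 CPM under decitabine, against 271, 278 and 336 CPM under DMSO, with overlap and a change of -0.10. From 27 libraries ACLY was not called in PEER, at -0.34 (SE 0.12, edgeR adjusted p = 0.0807), or TALL-1, at -0.31 (SE 0.12, edgeR adjusted p = 0.0799).

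ACACA, acetyl-CoA carboxylase, makes the malonyl-CoA that fatty acid chains are built with. Its levels were 34.4, 36.1 and 38.7 CPM under decitabine, against 53.4, 49.4 and 56.3 CPM under DMSO in PER-117, and 41.3, 40.4 and 37.2 CPM under decitabine, against 58.2, 50.3 and 50.7 CPM under DMSO in Loucy. The groups were apart, and the changes were -0.54 (SE 0.14, edgeR adjusted p = 0.00712) and -0.42 (SE 0.13, edgeR adjusted p = 0.0309). FASN, the synthase that joins those units, had 159.7, 146 and 150.1 CPM under decitabine, against 313, 243 and 289 CPM under DMSO in PER-117, with a change of -0.89 (SE 0.23, edgeR adjusted p = 0.00839). SCD, which puts the first double bond into the product, had 522, 572 and 574 CPM under decitabine, against 832, 802 and 1245 CPM under DMSO in PER-117, with a change of -0.79 (SE 0.21, edgeR adjusted p = 0.0106). The FASN groups were also apart in PEER, TALL-1 and Loucy, with uncalled changes of -0.66, -0.59 and -0.63. So were those of SCD, at -0.52 in PEER, -0.60 in TALL-1 and -0.46 in Loucy, again uncalled. In the fit of 27 libraries both were called lower in TALL-1, FASN at -0.69 (SE 0.18, edgeR adjusted p = 0.0072) and SCD at -0.71 (SE 0.20, edgeR adjusted p = 0.0137). In MOLT-16 the groups overlapped for both, with FASN at 0.22 and SCD at -0.46. In PER-117 the calls of ACACA and FASN were kept whichever library was left out, and that of SCD was lost without decitabine replicate 1 or DMSO replicate 3. The Loucy call of ACACA was lost unless the library left out was DMSO replicate 2 or DMSO replicate 3.

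ELOVL6, which lengthens the saturated product of FASN, had 95.9, 82.9 and 89.1 CPM under decitabine, against 55.6, 51.2 and 42.8 CPM under DMSO in TALL-1. It had 21.96, 21.3 and 26.4 CPM under decitabine, against 14.2, 20.4 and 13.4 CPM under DMSO in PEER. Decitabine libraries were all higher in both lines, and the change was 0.84 (SE 0.16, edgeR adjusted p = 0.000657) in TALL-1, a call kept whichever library was left out. In PEER the change of 0.53 did not pass (edgeR adjusted p = 0.0991). MOLT-16 had 71.3, 80.2 and 76.97 CPM under decitabine, against 96.3, 71.8 and 56.1 CPM under DMSO. Loucy had 78.3, 68.4 and 67.8 CPM under decitabine, against 70.9, 73.8 and 70.2 CPM under DMSO, and PER-117 had 24.5, 21.4 and 21.5 CPM under decitabine, against 18.7, 17.4 and 22.01 CPM under DMSO. In these lines the groups overlapped, with changes of 0.03, -0.0028 and 0.22, and the difference between lines passed (edgeR adjusted p = 0.0353). With 27 libraries ELOVL6 was called higher in PEER as well, at 0.75 (SE 0.17, edgeR adjusted p = 0.00472).

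ELOVL5, which lengthens polyunsaturated chains, had 216, 256 and 211 CPM under decitabine, against 334, 299 and 339 CPM under DMSO in TALL-1, with groups apart and a change of -0.51 (SE 0.14, edgeR adjusted p = 0.0161), a call lost unless the library left out was decitabine replicate 2 or DMSO replicate 2. Its changes in the other lines were -0.39 in PEER, -0.14 in MOLT-16, -0.39 in Loucy and -0.36 in PER-117, all uncalled with all libraries. The desaturases FADS1 and FADS2 lie on opposite strands of overlapping loci. With all libraries FADS2 was below 0 in every line, between -0.69 in MOLT-16 and -0.13 in PEER. Without the 3 libraries that stood apart it was at 0.03 in MOLT-16 and -0.38 in PEER. FADS1 lay between -0.38 in PER-117 and 0.27 in PEER. LPIN1, a phosphatidate phosphatase on the way to triglyceride, lay between -0.20 in PER-117 and 0.34 in Loucy. None of FADS1, FADS2 and LPIN1 was called in any line with all libraries. From 27 libraries LPIN1 was called lower in MOLT-16 at -0.44 and stood at 0.45 in PEER, uncalled, and the ELOVL5 change in PEER was -0.13. FADS2 was then called lower in PER-117, at -0.55, and ELOVL5 in PER-117, at -0.36, and in Loucy, at -0.40.

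**Figure D2:**
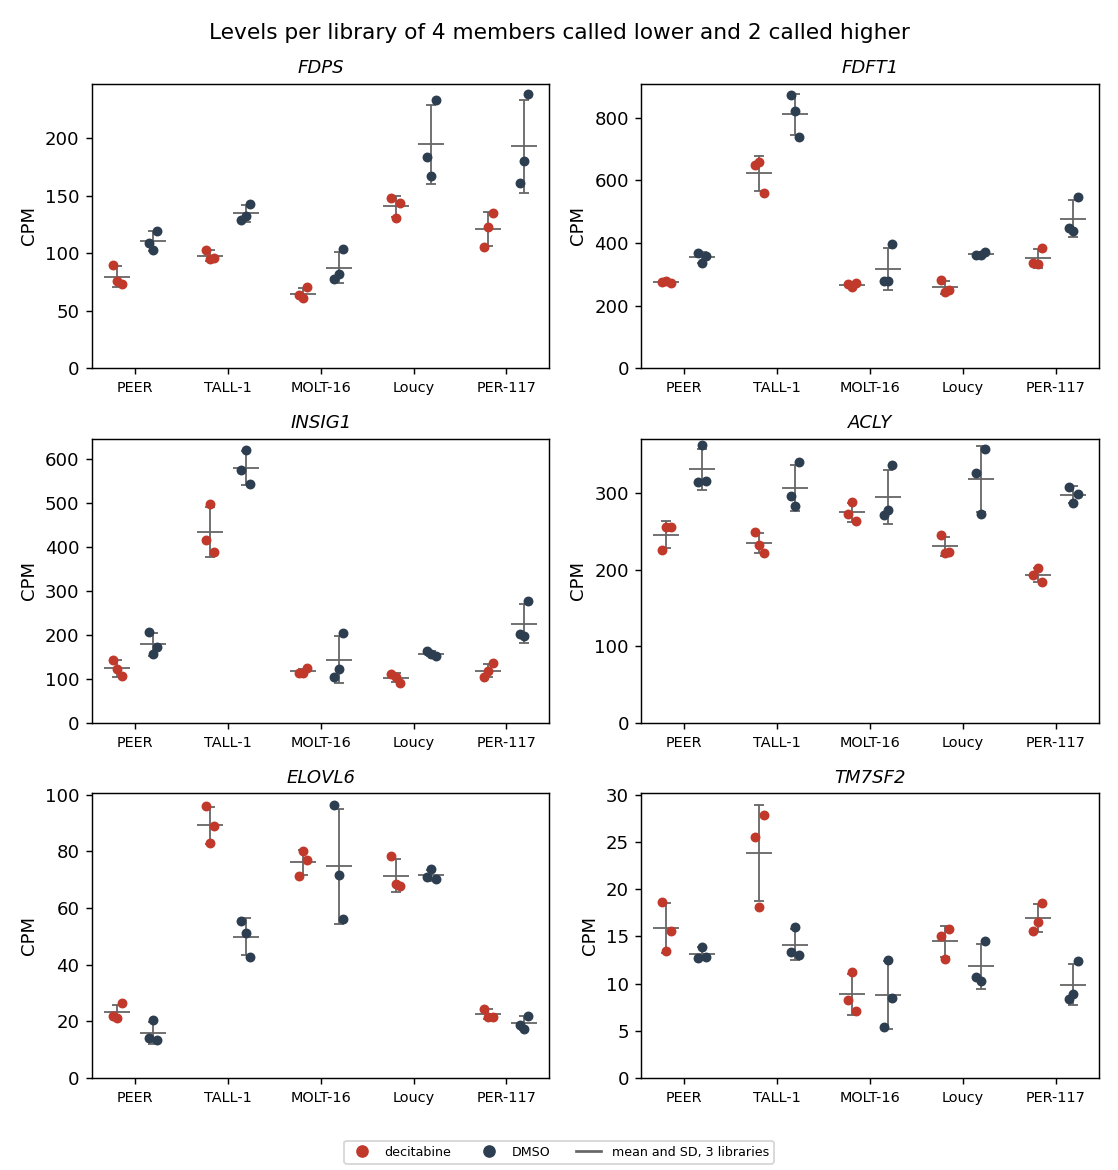
CPM of FDPS, FDFT1, INSIG1, ACLY, ELOVL6 and TM7SF2 in each library, decitabine left of DMSO within each line, with the mean and SD of 3 libraries. For FDPS and FDFT1 the decitabine points lie below the DMSO points within each of the 5 lines, and for ELOVL6 the gap is in TALL-1 and PEER.

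Summed over each branch, the members' CPM were lower under decitabine in the means of all 5 lines. The sterol sum averaged 2173 ± 171 CPM under decitabine and 3048 ± 463 CPM under DMSO in PER-117 (SD, n = 3 each), a ratio of 0.713. In Loucy it averaged 1930.3 ± 90.7 CPM under decitabine and 2457 ± 99.9 CPM under DMSO, a ratio of 0.786. The groups were apart in both lines. They were apart in PEER too, at no more than 1445 CPM under decitabine and at least 1581 CPM under DMSO, a ratio of 0.841. The ratio was 0.947 in TALL-1 and 0.889 in MOLT-16, with overlapping groups. Abundant members weigh most in a sum, and in TALL-1 6 of the 23 measured sterol members had a log2 change below 0. The fatty acid sum averaged 1459 ± 48.0 CPM under decitabine and 2268 ± 329 CPM under DMSO in PER-117, a ratio of 0.643. Its ratios were 0.758 in Loucy, 0.763 in TALL-1, 0.769 in PEER and 0.911 in MOLT-16. In TALL-1 the mean fatty acid sum differed by -23.7% and the mean sterol sum by -5.33%, decitabine minus DMSO. Over the 27 libraries the MOLT-16 ratios were 1.024 for the sterol sum and 0.993 for the fatty acid sum. In bulk RNA fewer cells of a kind and less RNA per cell cannot be told apart.

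**Figure D3:**
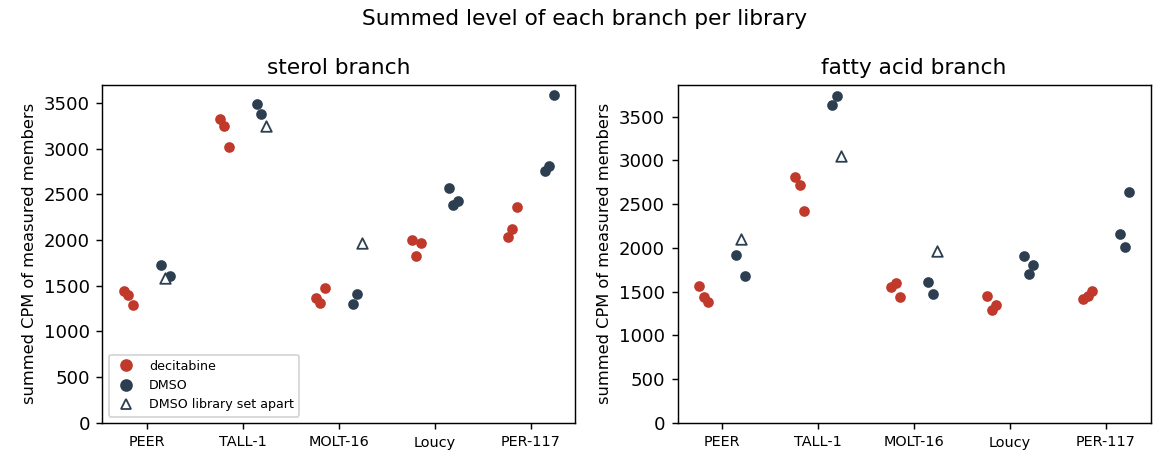
Summed CPM of the 23 measured sterol members (left) and the 9 fatty acid members (right) in each library, decitabine left of DMSO, with the 3 DMSO libraries that stood apart as open triangles. In MOLT-16 the triangle is the highest point of each panel's pair, and the other DMSO points lie close to the decitabine points.

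In MOLT-16 the picture depended on DMSO replicate 3, while the calls in other lines leaned on single libraries too, as given above. HMGCS1 had 157, 137 and 192 CPM under decitabine, against 116, 87.3 and 349.9 CPM under DMSO, and IDI1 had 40.95, 43.5 and 32.4 CPM under decitabine, against 16.9, 6.55 and 42.6 CPM under DMSO. LSS had 28.6, 22.997 and 29.2 CPM under decitabine, against 13.8, 13.997 and 29.6 CPM under DMSO. In each case DMSO replicate 3, the library with PEER transcripts, was well above its 2 companions, and those lay below every decitabine value. PEER itself averaged 163 CPM of HMGCS1, 34.5 CPM of IDI1 and 29.3 CPM of LSS over its 3 DMSO libraries. The part of PEER transcripts in the high values was not tested. With the 3 libraries that stood apart left out, 5 members were called higher and 3 lower in MOLT-16, against 9.78% of 15741 genes called higher and 7.93% lower in that fit. IDI1 was higher by 1.67 (SE 0.29, edgeR adjusted p = 0.000153), SREBF1 by 1.06 (SE 0.27, edgeR adjusted p = 0.00561) and LSS by 0.94 (SE 0.22, edgeR adjusted p = 0.00297). HMGCS1 was higher by 0.64 (SE 0.17, edgeR adjusted p = 0.0103) and FASN by 0.59 (SE 0.19, edgeR adjusted p = 0.0241). The 3 called lower were NSDHL at -0.61, PMVK at -0.54 and LPIN1 at -0.44. FDPS gave -0.33 and FDFT1 -0.09 in that fit, and neither was called. This fit has 2 DMSO libraries in each of PEER, TALL-1 and MOLT-16.

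The same fit called 10 members lower in Loucy (8% of genes lower), 17 lower and 1 higher in PER-117 (5.6% lower, 11.9% higher), 6 lower and 3 higher in TALL-1 (6.49% lower, 7.46% higher) and 1 lower and 1 higher in PEER (0.896% lower, 4.7% higher). In Loucy the members added were ACAT2, HMGCS1, SQLE, FASN and ELOVL5. In PER-117 NSDHL was added at -0.48 (edgeR adjusted p = 0.0246), EBP at -0.41 (0.0429), FADS2 at -0.55 (0.0393) and ELOVL5 at -0.36 (0.0233). Neither line lost a library in this fit. HMGCS1 in Loucy, for example, was at -0.62 (SE 0.14), against -0.61 (SE 0.28) with all libraries. In TALL-1 INSIG1, SREBF1, FASN and SCD were added among the members called lower, as given above, and MSMO1 was called higher at 0.49 (SE 0.14, edgeR adjusted p = 0.0198), while FDPS, TM7SF2 and ACLY were no longer called.

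**Figure D4:**
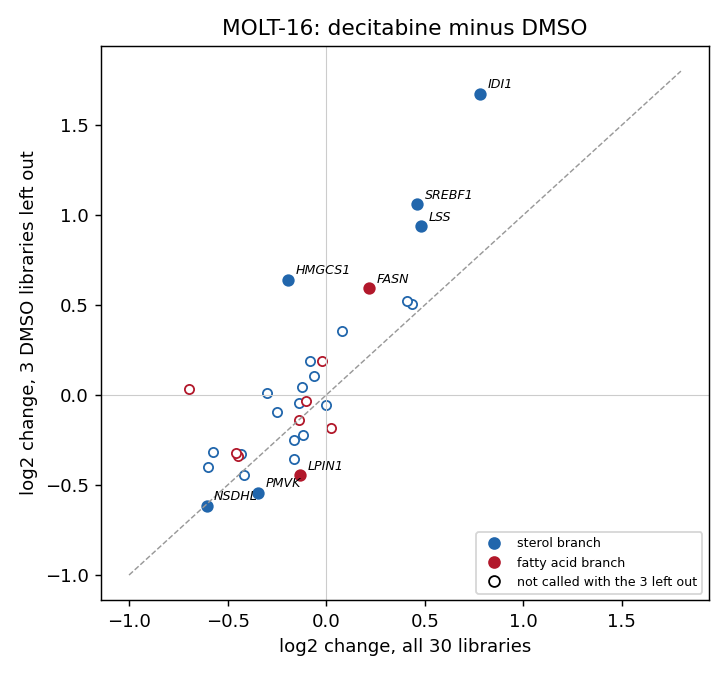
Log2 change of each of the 32 members in MOLT-16 with all 30 libraries (horizontal) against that with the 3 DMSO libraries left out (vertical). The dashed line marks equal values, filled points are called in the second fit, and IDI1, SREBF1, LSS, HMGCS1 and FASN lie above the line.

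With each line summed to 1 value per treatment and the 5 lines taken as replicates, no member was called by edgeR, where 0.00% of 13830 genes were called lower and 0.0578% higher. At an unadjusted p under 0.05 there were 11 members lower and 1 higher, and 2319 of all genes in either direction. FDPS gave -0.49 (SE 0.08, edgeR adjusted p = 0.0593) and was below 0 in 5 of 5 lines. SCD gave -0.56 (SE 0.08, edgeR adjusted p = 0.0593), FDFT1 -0.39 (SE 0.07, edgeR adjusted p = 0.0725) and INSIG1 -0.54 (SE 0.10, edgeR adjusted p = 0.0725), also below 0 in 5 of 5 lines. ACLY gave -0.42 (SE 0.09, edgeR adjusted p = 0.0915), with the same sign in every line. With no filter on low counts 10 members were called lower, against 1.36% of 33057 genes, and they were ACACA, ACLY, ELOVL5, FADS2, FASN, FDFT1, FDPS, HMGCS1, INSIG1 and SCD. In the fits of each line 10 members were below 0 in all 5 lines, against 8.48% of genes. With 27 libraries 8 members were, against 7.54% of genes, and 7 members were in both counts, since ACAT2, INSIG1 and FADS2 were above 0 in MOLT-16 and MVD came in.

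Under DMSO the lines differed in nearly every member. The DMSO groups differed for 30 of the 32 members (edgeR), where 91.6% of all genes did, and the members that did not pass were ACLY (adjusted p = 0.594) and TM7SF2 (0.0532). The members named next were chosen after their values were seen. FADS2 ranged most, at 253 ± 61.3 CPM in TALL-1 and 33.3 ± 24.4 CPM in MOLT-16 under DMSO (SD, n = 3 each), 7.60-fold apart and 14.4-fold without the libraries that stood apart. SCD averaged 1601 ± 225 CPM in TALL-1 and 316 ± 73.3 CPM in PEER, 5.08-fold apart. ELOVL6 averaged 74.7 ± 20.3 CPM in MOLT-16 and 16.01 ± 3.84 CPM in PEER, and LPIN1 138 ± 56.4 CPM in MOLT-16 and 29.7 ± 1.81 CPM in TALL-1. Without the libraries that stood apart LPIN1 was lowest in PEER instead, 6.95-fold from MOLT-16. IDI1 then ranged 8.47-fold between Loucy and MOLT-16, and SREBF1 7.48-fold between TALL-1 and MOLT-16. With all libraries INSIG1 averaged 579 ± 38.7 CPM in TALL-1, against 179 ± 25.9 CPM in PEER, 144 ± 53.5 in MOLT-16, 158 ± 5.02 in Loucy and 226 ± 44.998 in PER-117. TALL-1 had the highest DMSO mean of INSIG1, HMGCS1, FDFT1, SCD, FASN and both FADS genes, while PER-117 had that of MVK, MVD, MSMO1, NSDHL, EBP and DHCR7. For HMGCS1 the order of TALL-1 and PER-117, at 635 ± 38.6 and 631 ± 147 CPM, is within the spread of the libraries. ACLY differed least, by 1.12-fold between the highest and lowest line.

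Of 39 other genes of sterol and fatty acid handling, 37 were measured (ME1 and ELOVL7 did not pass the filter). Those called were mostly higher, as were calls over all genes: 1 higher in PEER, 5 higher and 2 lower in TALL-1, 2 higher in MOLT-16, 3 higher in Loucy and 6 higher and 1 lower in PER-117. Of all genes 3.54% were called higher in PEER, 6.74% in TALL-1, 2.19% in MOLT-16, 10.6% in Loucy and 8.67% in PER-117. MYLIP, a ubiquitin ligase that marks lipoprotein receptors for destruction and is a target of the oxysterol receptors, had 127, 120.0 and 144 CPM under decitabine, against 30.5, 29.8 and 17.4 CPM under DMSO in TALL-1. The groups were far apart, with a change of 2.34 (SE 0.33, edgeR adjusted p = 1.85e-05). The oxysterol targets ABCA1 and ABCG1, which export cholesterol, were not called in TALL-1, at -0.16 and -0.65, although ABCG1 was called lower there, at -0.89, without the 3 libraries that stood apart. ELOVL1, an elongase of very long chains, changed there by 1.24 (SE 0.31, edgeR adjusted p = 0.00739). In the same line NPC1 and NPC2, which move cholesterol out of lysosomes, were higher by 0.89 (SE 0.18, edgeR adjusted p = 0.00146) and 0.40 (SE 0.13, edgeR adjusted p = 0.0414), NPC2 being uncalled at 0.27 without those libraries, and the ubiquitin ligase RNF139 by 0.64 (SE 0.13, edgeR adjusted p = 0.000964). SOAT1, which esterifies cholesterol, was lower there at -0.47 (SE 0.15, edgeR adjusted p = 0.0363), as was TMEM97 at -0.74 (SE 0.16, edgeR adjusted p = 0.0024).

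FADS3, the third gene of the desaturase cluster, had 12.1, 6.82 and 9.32 CPM under decitabine, against 1.23, 1.67 and 2.27 CPM under DMSO in PER-117. In MOLT-16 it had 20.2, 25.4 and 29.2 CPM under decitabine, against 6.38, 8.93 and 9.38 CPM under DMSO. The groups were apart in both, and the changes were 2.45 (SE 0.34, edgeR adjusted p = 8.65e-06) and 1.57 (SE 0.32, edgeR adjusted p = 0.00402). FADS3 was at 30.7, 29.8 and 34.3 CPM under decitabine, against 22.5, 22.95 and 22.05 CPM under DMSO in Loucy, where a change of 0.49 was not called, although the groups were apart. Over the 27 libraries FADS3 was called higher in all 5 lines, at 0.74 in PEER, 2.13 in TALL-1, 1.65 in MOLT-16, 0.48 in Loucy and 2.45 in PER-117. LPIN3, a relative of LPIN1, had few reads, with 62 reads under decitabine and 0 under DMSO over the 3 PER-117 libraries of each group. In Loucy it had 39 reads under decitabine and 0 under DMSO. Against a floor of 3 reads over the DMSO group this is at least 16.9-fold higher in PER-117 and at least 15.1-fold higher in Loucy. In MOLT-16 LPIN3 had 21 reads under decitabine and 1 under DMSO, a ratio of 27.1 with an exact 95% interval of 4.36 to 1121, and 1 decitabine library had none. AACS, which activates acetoacetate for lipid synthesis, had 8.14, 8.81 and 9.22 CPM under decitabine, against 2.91, 4.49 and 4.42 CPM under DMSO in PER-117, with a change of 1.14 (SE 0.18, edgeR adjusted p = 4.01e-05). ACACB, the carboxylase tied to mitochondria, had 7.35, 6.74 and 5.40 CPM under decitabine, against 4.09, 1.72 and 3.51 CPM under DMSO in PEER, with a change of 1.08 (SE 0.30, edgeR adjusted p = 0.0358). Without the 3 libraries ACACB was uncalled in PEER at 0.82, while MYLIP was called higher there at 2.88. That fit of these genes was added after the data were seen.

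NPC2 was called higher in Loucy and PER-117 too, at 0.72 and 0.49, and HSD17B12, a reductase of the elongation cycle, in the same lines at 0.68 and 0.69. LPIN2 was called higher in PER-117 at 0.64, and ERLIN1, which restrains SREBP in the endoplasmic reticulum, lower at -0.66. With all libraries none of the 8 SREBP processing genes was called in PEER, MOLT-16 or Loucy by edgeR, where 0, 2 and 0 of them had an unadjusted p under 0.05 (share of all genes not counted). In the fit of 27 libraries MBTPS1 was called lower in MOLT-16, at -0.59, and ERLIN1 higher, at 0.63.

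**Figure D5:**
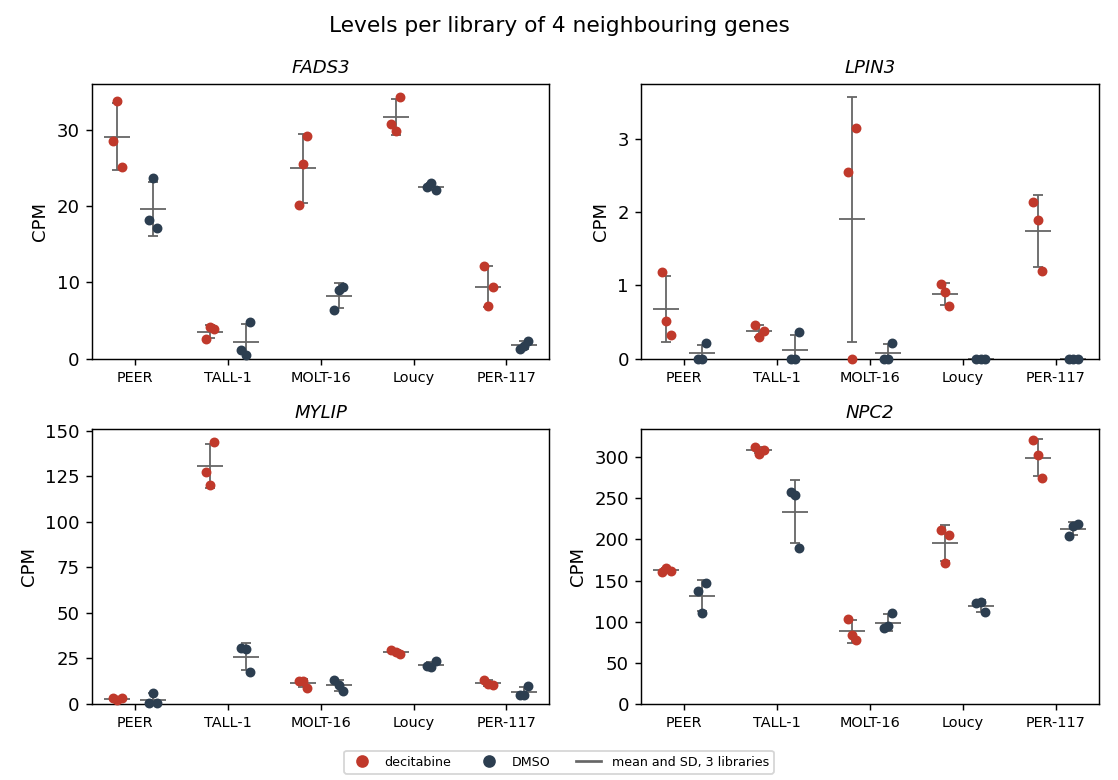
CPM of FADS3, LPIN3, MYLIP and NPC2 in each library, decitabine left of DMSO within each line, with the mean and SD of 3 libraries. MYLIP stands out in TALL-1 under decitabine, and LPIN3 is at 0 in all DMSO libraries of Loucy and PER-117.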

How the data were processed

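The deposited files hold whole-number read counts per gene for 30 libraries of QuantSeq 3′ mRNA, per the labels' protocols. The authors made them with STAR 2.4.2a on GRCh38, and used DESeq2, per the submitters' processing notes. The annotation release behind the counts was not given in the sources used here, and symbols were taken from GENCODE 29. The counts of the gene's own strand were used, since they exceeded the opposite strand 12.8 to 15.2 times. Summary rows that name no gene were left out. Of the reads assigned to a gene, to no feature or as ambiguous, the last 2 kinds made up 13.9% to 33.0% per library. Other summary rows, such as unmapped reads, are not in this share.

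Genes were kept by edgeR's filterByExpr with a minimum count of 10, which left 15081. Scaling was TMM. The quasi-likelihood test of edgeR 4.0.16 (R 4.3.3, limma 3.58.1) was fitted to all 10 groups at once, with 20 residual degrees of freedom and a common dispersion of 0.0280, and p-values were Benjamini-Hochberg adjusted over all genes tested. Standard errors are approximate, being the size of the log2 change over the root of its F statistic. Differences between lines were tested as the interaction of line and treatment. With lines as replicates, counts were summed over the 3 libraries of a group and the line was a block. The procedure was tested on simulated data. Promoter windows came from RefSeq (GRCh38.p14).

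The members, the gene lists and the alternatives were chosen with earlier results of these data known. Values per library were given for members called in a line (up to 6 a line and branch, by size), for up to 6 members whose response differed between lines, and for SREBF1, SREBF2, SCAP and INSIG1 as log2 changes in every line. Neighbouring genes called with a log2 change of at least 1 were named, up to 4 a line, and the other called ones were added after their values were seen. Restricted genes had at least 10 CPM in their own line and at most 2 CPM in every decitabine library of the other lines. The labels do not say that libraries of a group were separate cultures, so p-values measure the spread between these samples, which may be technical. Reads were not molecules counted with identifiers, so the exact interval and floor cover counting error only. Within groups no pair of libraries agreed within sampling noise (lowest chi-square per degree of freedom 2.13). Titles and file names of the PEER DMSO libraries exchange replicates 2 and 3, so replicate numbers follow the titles. DESeq2 1.42.0 was an alternative test.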

Additional observations from a re-analysis of the deposited data

Results flagged for a closer look

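A difference between the 5 lines in the response to decitabine, tested as the interaction of line and treatment with edgeR and Benjamini-Hochberg adjustment over all genes, was found for 7 members. The adjusted p was 0.0226 for NSDHL, 0.0261 for MSMO1 and 0.0353 for ELOVL6. It was 0.0381 for MVK, 0.0432 for DHCR7, 0.0435 for SQLE and 0.0474 for SC5D. MSMO1, SQLE, SC5D and ELOVL6 had every decitabine library above every DMSO library in TALL-1, as did NSDHL, while in PER-117 the decitabine libraries of MSMO1, SQLE, NSDHL, DHCR7 and MVK all lay below.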

How the results depend on the processing

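Under the replicate block sterol calls were 2 in PEER, 7 in TALL-1 and 5 in Loucy, and fatty acid calls 0 in PEER and 5 in TALL-1. The numbers did not pair the samples (same-number correlations -0.19 to 0.22, with 6 of 15 decitabine libraries closest to their own number). With no filter on low counts, TALL-1 had 0 sterol calls, PEER 2 fatty acid calls, MOLT-16 1 in each branch, and lines as replicates 10. With RLE scaling PEER had 0 fatty acid calls. Fitted on the line alone, sterol calls were 7 in TALL-1 and 5 in Loucy, and fatty acid calls 0 in PEER, 5 in TALL-1, 6 in Loucy and 7 in PER-117. Without the 3 libraries that stood apart, sterol calls were 1 in PEER, 6 in MOLT-16 and 6 in Loucy, fatty acid calls 2 in MOLT-16 and 4 in Loucy, and the response differed for 16 members. On the unstranded column FDPS in TALL-1 changed sign to 0.32. No other change called with all libraries changed sign under an alternative, but without the 3 libraries 13 of 160 member changes did, 8 of them in MOLT-16, where HMGCS1 was then called higher. Leaving out 1 library, sterol calls ranged over 0 to 0 in PEER, 0 to 2 in TALL-1, 0 to 5 in MOLT-16, 1 to 3 in Loucy and 3 to 9 in PER-117. Fatty acid calls ranged over 0 to 1 in PEER, 1 to 3 in TALL-1, 0 to 1 in MOLT-16, 1 to 3 in Loucy and 3 to 4 in PER-117. Differing responses ranged over 1 to 14 and differing DMSO levels over 29 to 31. Leaving out 1 line gave 0 calls with lines as replicates. DESeq2 called 6 sterol and 4 fatty acid members in TALL-1, and as many as edgeR in the other lines. For the fit of 27 libraries and for lines as replicates with no filter, the share of all genes called is given above. For the other alternatives within lines, and for the fits that left out 1 library, that share was not counted. Whether those moves are particular to the members was therefore not tested. The causes of these moves were not tested either.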
